A study of Dicosmoecus gilvipes with 20 samples.

Results

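Moderate warming was examined as the comparison of larvae of the caddisfly *Dicosmoecus gilvipes* held at 25°C with larvae held at 15.5°C, which takes 10 of the 20 RNA-seq libraries of the laboratory experiment, 5 at each temperature. The libraries were chosen by the temperature in their labels alone, and no measured value entered that choice. *D. gilvipes* is a stream insect that carries a stone case, and the larvae were wild fifth-instar animals from 1 stream, kept together in cooler water, ramped over several days to their temperature and held there for a day. The tissue was the whole thorax, which was taken for its muscle. Libraries at 20°C and at 28.6°C, again 5 each, complete the series, and 28.6°C was the warmest exposure.

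The 5 libraries of a temperature were made from pools of RNA of the same larvae. The spread between them therefore reflects library preparation, sequencing and counting, and every test below compares pools of larvae and leaves out the variation between animals. The 25°C libraries held 6676486 to 9436262 estimated counts (median 7956094) and the 15.5°C libraries 7383431 to 14075957 (median 7905431), without 1 ribosomal-like subcomponent. The longest read position was 99 in 1 library of 25°C and 2 of 15.5°C, and 188 in the others. Below, these are called the libraries with shorter and with longer reads. The study's methods describe 1 read length for all libraries and the joining of overlapping pairs. The source of the difference was not tested. The share of estimated counts that fitted a single contig was 42.8% to 43.1% at 25°C and 45.9% to 46.0% at 15.5°C, without overlap, and the part of that difference in the results was not tested.

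When proteins begin to unfold in a warming cell, the heat shock response raises molecular chaperones, which hold, refold or hand over damaged proteins. Small heat shock proteins bind unfolding proteins without using ATP, hsp70 and hsp90 work in cycles with co-chaperones, and the chaperonins enclose a protein while it folds. Cells of animals also carry constitutive relatives, the cognates, which serve in ordinary folding in the cytosol, the endoplasmic reticulum and the mitochondria. Warming short of the damaging range also speeds metabolism, digestion and growth in an insect that takes its temperature from the water.

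Transcripts had been assembled without a genome into 135858 contigs in 79613 subcomponents, a subcomponent being the group of contigs that the assembler built from 1 set of overlapping reads. Estimated counts were summed over each subcomponent, so that the sum does not depend on how reads were divided between its contigs, and levels are given as CPM, counts relative to the total of the library after scaling by the TMM method of edgeR. A subcomponent passed the test at an adjusted p below 0.05 (quasi-likelihood test of edgeR, adjusted by Benjamini and Hochberg's method over all features tested). It was called when it also differed by at least 4-fold. Log2 fold changes are 25°C over 15.5°C unless another pair is named, so that a positive value means more at 25°C, and errors after a mean are SD over 5 libraries.

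Of 15220 subcomponents tested, 5051 were higher and 4996 lower at 25°C past the adjusted p, which is 33.2% and 32.8% of those tested. With the 4-fold criterion 206 were called higher (1.35%) and 148 lower (0.972%). The median log2 fold change over all of them was 0.016. The ranges of the 5 and 5 libraries did not overlap for 7925 subcomponents (52.1%). The numbers of calls moved with the settings. On effective counts, the counts adjusted by the authors' counting tool for length and bias, 496 were called higher and 340 lower. With only the libraries of longer reads 162 were called higher and 77 lower. Those were 4 libraries of 25°C and 3 of 15.5°C, and the filter still asked for 2 CPM in at least 4 libraries. A subcomponent that reached 2 CPM only at 15.5°C could not enter, so this setting does not show an effect of read length. With the read set (shorter or longer) as a covariate 202 were called higher and 149 lower. A minimum of 2 CPM in every library, which also removes subcomponents that were near 0 at 1 temperature, left 62 called higher and 43 lower. Scaled by library size alone, the median log2 fold change over all subcomponents was -0.11 and the calls were 174 higher and 188 lower.

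**Figure D1:**
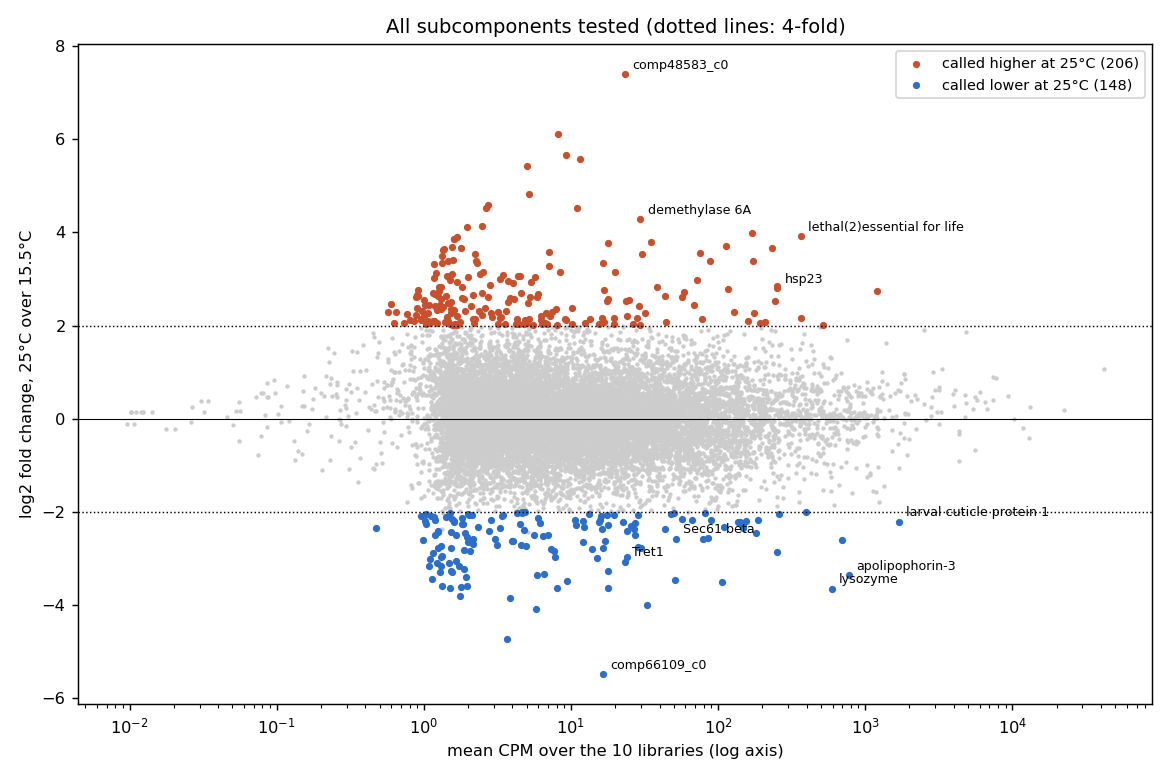
Mean CPM of each subcomponent over the 10 libraries (horizontal, log axis) and its log2 fold change at 25°C over 15.5°C (vertical). Grey points were tested and not called, red points are the 206 called higher and blue points the 148 called lower, and the dotted lines mark 4-fold in either direction.

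Names come from the best protein match in another species and are present only for transcripts in the authors' table of differentially expressed transcripts, with 528 named subcomponents, of which 527 were tested. Those transcripts were selected because they differed between temperatures in these same libraries, so counts over named lists are not independent evidence of a response. Among the 527 tested, 179 passed as higher and 284 as lower, and their median log2 fold change was -0.29. In 44 named subcomponents the contigs carried at least 2 names, and the leading one was used.

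The chaperones split by family. Of 34 chaperone subcomponents 12 rose at 25°C, 18 fell and 4 did not pass, with a median log2 fold change of -0.23, where 33.2% of all subcomponents tested were higher and 32.8% lower. That was close to the division of the named subcomponents, from which the list was drawn (179 of 527 rose and 284 fell, median -0.29). Small heat shock proteins made up 6 of the 12 that rose, and all 8 chaperonin subunits were among the 18 that fell. Of the 34, 2 were called, both of them small heat shock proteins and both higher. Called higher were 1.35% of all subcomponents and 34 of the 527 named.

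Protein lethal(2)essential for life (comp54376_c0), a small heat shock protein first described in *Drosophila*, had 704, 604, 747, 694 and 698 CPM at 25°C, against 47.2, 44.8, 42.1, 50.1 and 43.5 CPM at 15.5°C (log2 fold change 3.91, standard error 0.060, edgeR adjusted p = 2.69e-29). Every library of 25°C lay more than 10-fold above every library of 15.5°C. Heat shock protein 23 (comp54992_c0) had 439, 407, 478, 438 and 450.005 CPM at 25°C, against 63.4, 62.6, 64.5, 61.3 and 63.4 CPM at 15.5°C (log2 fold change 2.81, standard error 0.050, edgeR adjusted p = 6.46e-28). The 15.5°C libraries of hsp23 lay within a few CPM of one another, and the groups were far apart. Means at 20°C include its replicates 1 and 4, in which the ribosomal-like subcomponent took 44.99% and 76.99% of the estimated counts before it was set aside. From 15.5°C through 20 and 25°C to 28.6°C the means of the first were 45.5, 230.5, 689 and 3038 CPM, and those of hsp23 were 63.1, 192, 442 and 1847 CPM.

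Other subcomponents named lethal(2)essential for life rose by less. The log2 fold change was 1.56 for comp64060_c3, 1.40 for comp64489_c0 and 0.43 for comp62474_c2. On unique reads comp64489_c0 had 3.33. Heat shock protein 26 (comp63041_c3) averaged 50.9 ± 1.19 CPM at 25°C and 33.1 ± 1.89 CPM at 15.5°C, a log2 fold change of 0.62. Heat shock protein beta-1 (comp60046_c1) went the other way, with 703, 710.2, 622, 677 and 664 CPM at 25°C, against 1008, 964, 923, 949 and 988 CPM at 15.5°C (log2 fold change -0.52, standard error 0.044, edgeR adjusted p = 1.04e-11). It was the only 1 of the 7 small heat shock proteins that fell, and its groups did not overlap. Of the reads of hsp26 9.82% were unique to a contig, and counted on unique reads alone its log2 fold change was -0.45.

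In the hsp70 family the cytosolic cognate rose, cognates of the endoplasmic reticulum and mitochondria fell, and 4 members did not pass. Heat shock 70 kDa protein cognate 4 (comp64785_c1), the constitutive cytosolic hsp70 of *Drosophila*, had 4729.6, 4514, 4307, 4453 and 4535 CPM at 25°C, against 2262, 2180.4, 2139, 2160.3 and 2075 CPM at 15.5°C (log2 fold change 1.06, standard error 0.041, edgeR adjusted p = 8.60e-20). It was the only member of the family of 9 that rose. None of its reads were unique to 1 contig, so that it could not be tested on unique reads. Heat shock protein 70 B2 (comp64140_c1), named after an inducible hsp70 of mosquitoes, had 208, 206, 200.2, 205 and 208 CPM at 25°C, against 192, 205, 209.7, 193 and 189 CPM at 15.5°C, with overlapping groups (log2 fold change 0.058, standard error 0.049, edgeR adjusted p = 0.308). Major heat shock 70 kDa protein Ab (comp65626_c0), an inducible form in *Drosophila*, had 123, 119, 128, 127 and 134 CPM at 25°C, against 129, 128, 139, 129.6 and 136 CPM at 15.5°C, again with overlap (log2 fold change -0.065, edgeR adjusted p = 0.226). Heat shock protein 68 (comp56264_c2) and cognate 2 (comp56264_c1) did not pass either, at log2 fold changes of -0.076 and -0.089. Practically none of the reads of protein Ab were unique to 1 contig (0.341%), and on unique reads its log2 fold change was 1.52. Scaled by library size alone, protein Ab and cognate 2 passed as lower, at -0.19 and -0.22.

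Cognate 3 (comp58617_c2), known as BiP and the hsp70 of the endoplasmic reticulum, had 408, 393, 420.3, 391 and 398 CPM at 25°C, against 1234, 1199, 1228, 1265 and 1160.0 CPM at 15.5°C (log2 fold change -1.60, standard error 0.042, edgeR adjusted p = 9.49e-24). All 5 libraries of 25°C were below all 5 of 15.5°C by a wide margin. Cognate 5 (comp63373_c1), the mitochondrial hsp70, averaged 100.2 ± 4.80 CPM at 25°C and 166 ± 7.86 CPM at 15.5°C, a log2 fold change of -0.73. The 97 kDa heat shock protein (comp59746_c0), of the branch of the family that assists nucleotide exchange, had a log2 fold change of -0.30, and the subcomponent named heat shock 70 kDa protein (comp56264_c0) one of -0.21. Both fell.

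Hsp90 and the co-chaperones were evenly divided, with 5 that rose and 5 that fell. Over all subcomponents 33.2% were higher and 32.8% lower, and of the 527 named 179 rose and 284 fell. Heat shock protein 83 (comp63082_c0), the cytosolic hsp90 of insects, had 1698, 1691, 1631, 1602 and 1641 CPM at 25°C, against 999, 909.8, 933, 965 and 936 CPM at 15.5°C (log2 fold change 0.80, standard error 0.040, edgeR adjusted p = 3.98e-17). BAG domain-containing protein Samui (comp61114_c0), a member of a family that binds hsp70, averaged 151 ± 14.8 CPM at 25°C and 67.3 ± 6.47 CPM at 15.5°C (log2 fold change 1.17, standard error 0.091, edgeR adjusted p = 1.46e-12). Few reads of these 2 were unique (0.0117% and 0.653%), and on unique reads alone their log2 fold changes were -0.032 and -0.15. DnaJ protein homolog 1 (comp64156_c0), an hsp40 that delivers clients to hsp70, stress-induced-phosphoprotein 1 (comp63194_c0), which links hsp70 with hsp90, and Hsc70-interacting protein 2 (comp54040_c0) rose by 0.68, 0.60 and 0.58 on the log2 scale.

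Protein unc-45 homolog B (comp59367_c0), a chaperone of myosin, had 43.4, 41.0, 36.8, 38.9 and 43.2 CPM at 25°C, against 75.7, 72.5, 69.5, 73.5 and 68.1 CPM at 15.5°C (log2 fold change -0.82, standard error 0.052, edgeR adjusted p = 1.42e-14). On unique reads, unc-45 and the activator of the hsp90 ATPase (comp63956_c0) did not pass, at -0.46 and -0.28. The activator had a log2 fold change of -0.50, and DnaJ homolog subfamily A member 1 (comp56040_c0), nudC (comp62475_c2) and a cysteine and histidine-rich domain-containing protein (comp57128_c0) had values between -0.27 and -0.24.

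All 8 chaperonin subunits fell, with log2 fold changes from -1.66 to -0.72 and a median of -1.16, and none overlapped between the temperatures. Of the 527 named subcomponents tested, 284 fell and 441 did not overlap. Mitochondrial hsp10 (comp63721_c5) had 41.9, 29.8, 32.3, 33.3 and 36.1 CPM at 25°C, against 122, 107, 102, 109 and 112 CPM at 15.5°C (log2 fold change -1.66, standard error 0.081, edgeR adjusted p = 2.62e-17), and its partner hsp60 (comp60163_c0) had 118, 120.0, 114, 115 and 115 CPM at 25°C, against 292, 305, 290.3, 290.3 and 298 CPM at 15.5°C (log2 fold change -1.34, standard error 0.041, edgeR adjusted p = 2.58e-22). The pair forms the folding chamber of mitochondria. The 6 measured subunits of the cytosolic T-complex, which folds actin and tubulin, moved the same way, from epsilon (comp60198_c0, 103 ± 6.76 CPM at 25°C and 287 ± 8.65 CPM at 15.5°C) to eta (comp62838_c0, 109 ± 12.7 CPM at 25°C and 179.9 ± 17.1 CPM at 15.5°C). On unique reads eta did not pass, at -0.87.

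**Figure D2:**
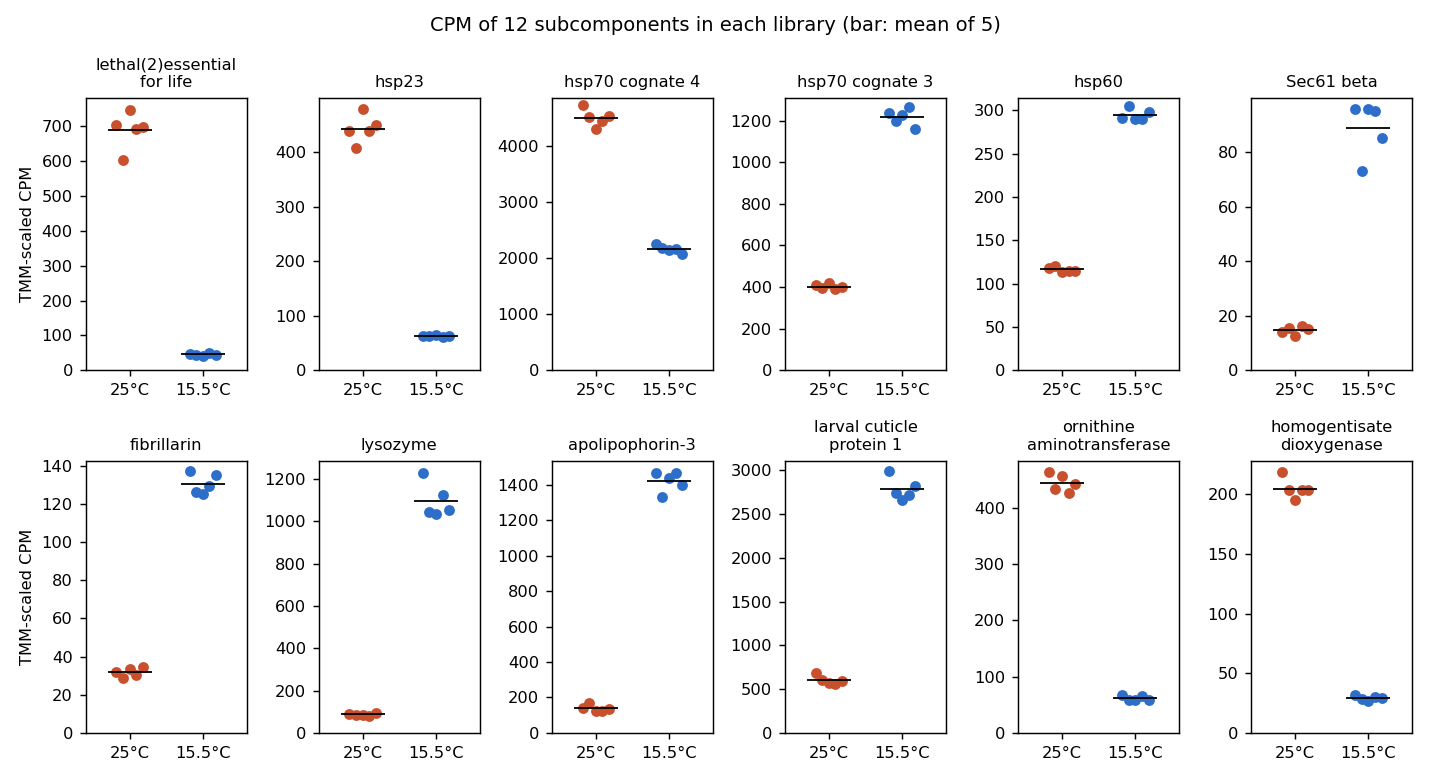
CPM of 12 subcomponents in each of the 5 libraries of 25°C (red, left in each panel) and the 5 of 15.5°C (blue, right), with the mean as a bar and each vertical axis starting at 0. Each panel shows 2 groups without overlap, with the small heat shock proteins and amino acid enzymes higher at 25°C and the hsp70 cognate of the endoplasmic reticulum, hsp60 and the secreted proteins lower.

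The step that follows, 28.6°C over 25°C, was tested in the same fit. It uses the 25°C libraries again, so it is not independent of the comparison above. All 34 chaperones passed as higher at 28.6°C, where 29.8% of all subcomponents did, and their median log2 fold change was 2.60. The list was drawn from the authors' table, in which a difference between temperatures was the criterion for entry. The smallest of those changes was 1.35 for DnaJ protein homolog 1 and the largest 6.49 for lethal(2)essential for life comp64489_c0. On unique reads 31 of the chaperones passed as higher in this step.

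The values of both steps are given side by side for some members. Lethal(2)essential for life comp54376_c0 had a log2 fold change of 3.91 at 25°C over 15.5°C and 2.14 at 28.6°C over 25°C, and hsp23 had 2.81 and 2.06. Protein Ab of the hsp70 family had -0.065 in the first step and 5.79 in the second. For unc-45 the values were -0.82 and 5.96, and for hsp60 -1.34 and 2.68. From the coolest to the warmest exposure, hsp60 averaged 295, 120.2, 116 and 747 CPM, protein Ab 132, 108, 126 and 6988 CPM and cognate 3 1217, 364, 402 and 1581 CPM.

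**Figure D3:**
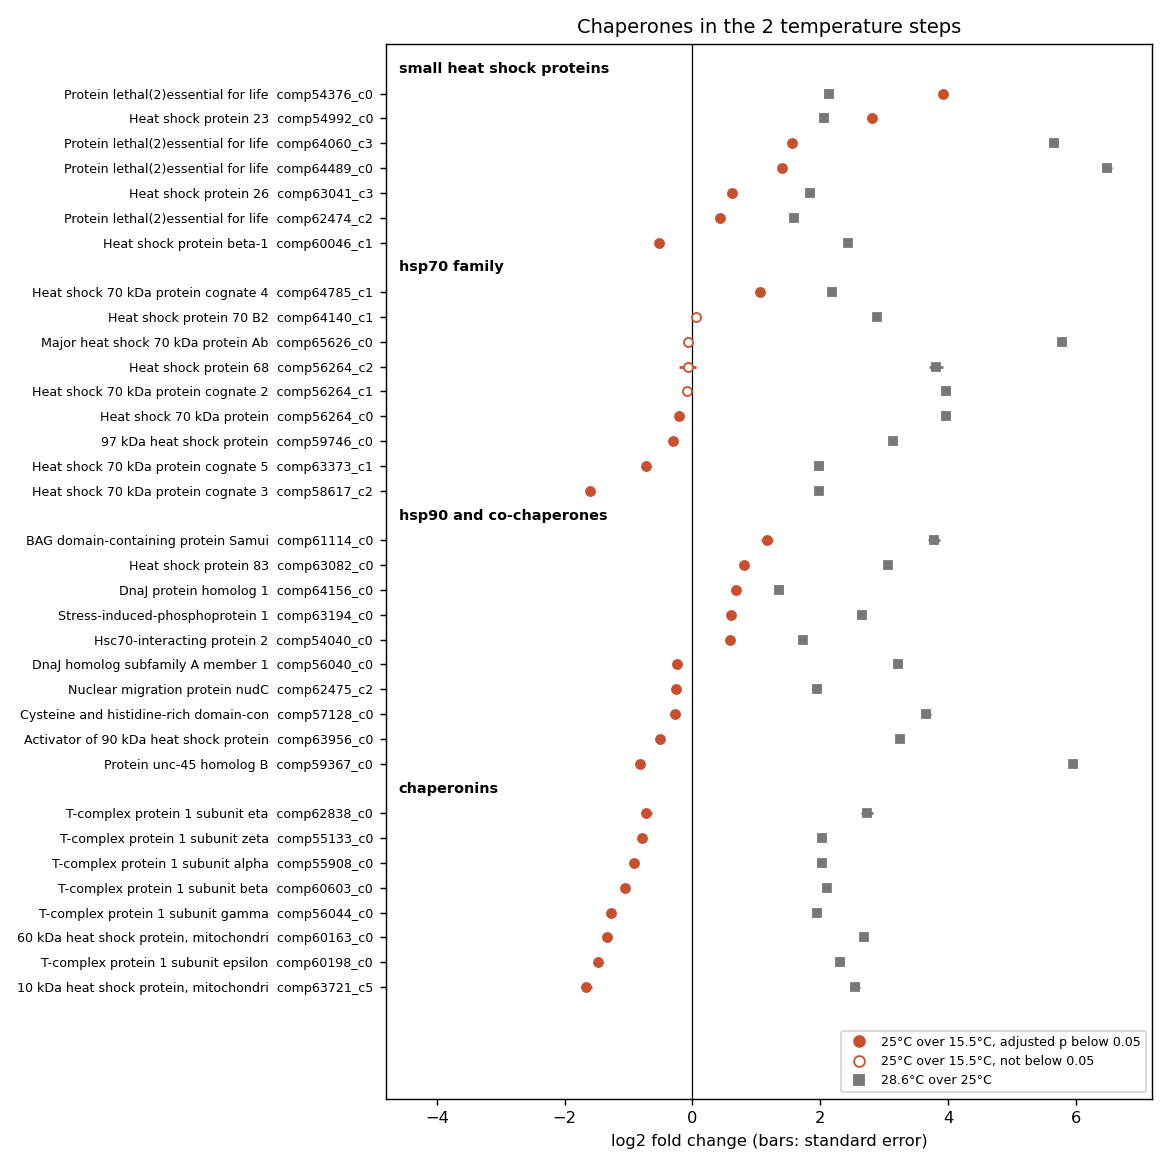
Log2 fold change of each of the 34 chaperone subcomponents at 25°C over 15.5°C (circles, filled where the adjusted p was below 0.05) and at 28.6°C over 25°C (squares), with standard errors as bars, grouped by family. The squares all lie right of 0, while the circles lie right of 0 for 6 of 7 small heat shock proteins and left of 0 for all 8 chaperonins.

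Proteins bound for secretion or for membranes enter the endoplasmic reticulum through the Sec61 channel, helped by the translocon-associated proteins. Of 11 subcomponents of this list 10 fell at 25°C and 1 rose, with a median log2 fold change of -1.96, where 284 of the 527 named subcomponents fell and 179 rose. Of the 11, 5 were called lower, against 0.972% of all subcomponents and 51 of the 527 named. Sec61 subunit beta (comp63306_c3) had 14.0, 15.5, 12.6, 16.4 and 15.2 CPM at 25°C, against 95.8, 73.3, 95.7, 95.2 and 85.1 CPM at 15.5°C (log2 fold change -2.57, standard error 0.087, edgeR adjusted p = 3.16e-21). Translocating chain-associated membrane protein (comp52083_c0) had 51.5, 46.3, 47.1, 48.9 and 49.0 CPM at 25°C, against 239, 257, 252, 246 and 251 CPM at 15.5°C (log2 fold change -2.35, standard error 0.059, edgeR adjusted p = 2.38e-24). Translocon-associated protein subunits beta (comp31633_c0) and alpha (comp61075_c2) averaged 36.1 ± 3.10 CPM at 25°C and 182 ± 3.12 CPM at 15.5°C, and 48.0 ± 2.47 CPM at 25°C and 225 ± 11.6 CPM at 15.5°C. None of these 4 overlapped between the temperatures, as was true of 441 of the 527 named subcomponents.

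Protein canopy homolog 2 (comp62578_c1) was also called, at -2.18, and the oligosaccharyltransferase subunit KRTCAP2 (comp52786_c0) had a log2 fold change of -1.96. Sec61 gamma (comp58475_c0), Sec61 alpha (comp61183_c6) and the mesencephalic astrocyte-derived neurotrophic factor homolog (comp64794_c4), which in *Drosophila* is secreted and resides in the endoplasmic reticulum, had -1.27, -0.94 and -1.23. The exception was protein disulfide-isomerase A6 (comp51417_c0), which averaged 13.5 ± 1.14 CPM at 25°C and 8.89 ± 0.837 CPM at 15.5°C. At 28.6°C over 25°C 4 of the 11 passed as higher and 5 as lower, where 29.8% of all subcomponents were higher and 29.4% lower. The means of Sec61 beta over the 4 temperatures, from the coolest, were 89.0, 43.4, 14.7 and 16.8 CPM.

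The nucleolus is where ribosomal RNA is made and ribosome subunits are assembled. Of 10 subcomponents of its list 9 fell and 1 rose, with a median log2 fold change of -1.79, where 32.8% of all subcomponents and 284 of the 527 named ones fell. Protein penguin (comp53494_c0), a nucleolar protein, had 9.46, 9.22, 7.10, 7.75 and 9.05 CPM at 25°C, against 42.7, 49.0, 42.1, 46.4 and 44.4 CPM at 15.5°C (log2 fold change -2.37, standard error 0.079, edgeR adjusted p = 2.01e-21). Fibrillarin (comp58229_c1), which methylates ribosomal RNA, had 32.1, 28.8, 33.6, 30.3 and 34.3 CPM at 25°C, against 137, 126, 125, 129 and 135 CPM at 15.5°C (log2 fold change -2.03, standard error 0.063, edgeR adjusted p = 4.83e-22). Both were called lower. Protein AATF (comp56623_c0), nucleolar protein 14 (comp62753_c0) and nucleolar protein 6 (comp56037_c0) lay just inside 4-fold, at -1.99, -1.97 and -1.96. Putative ribosomal RNA methyltransferase 1 (comp59346_c0) rose, with 17.0 ± 2.03 CPM at 25°C and 4.42 ± 0.389 CPM at 15.5°C. At 28.6°C over 25°C 9 of these 10 passed as higher and 1 as lower, against 29.8% and 29.4% of all subcomponents.

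Subcomponents of DNA replication and repair moved both ways, 4 higher and 5 lower of 12, with 3 that did not pass, and the shares over all subcomponents were 33.2% and 32.8%. Exonuclease 1 (comp59913_c0) had 0.915, 0.709, 1.08, 1.35 and 0.221 CPM at 25°C, against 10.5, 11.5, 10.4, 12.3 and 9.49 CPM at 15.5°C (log2 fold change -3.35, standard error 0.20, edgeR adjusted p = 3.14e-15), with few counts at 25°C. Ribonucleotide reductase subunit M2 (comp55247_c0), which makes deoxynucleotides, and the replication licensing factor Mcm2 (comp63453_c0) had log2 fold changes of -1.96 and -1.80. Replication factor C subunit 1 (comp64130_c0), part of the loader of the sliding clamp, averaged 20.3 ± 1.34 CPM at 25°C and 4.78 ± 0.433 CPM at 15.5°C and was called higher. The GINS subunit PSF2 (comp60619_c2) was also called higher, at 2.78 CPM at 25°C and 0.462 CPM at 15.5°C, near the limit of the counts.

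**Figure D4:**
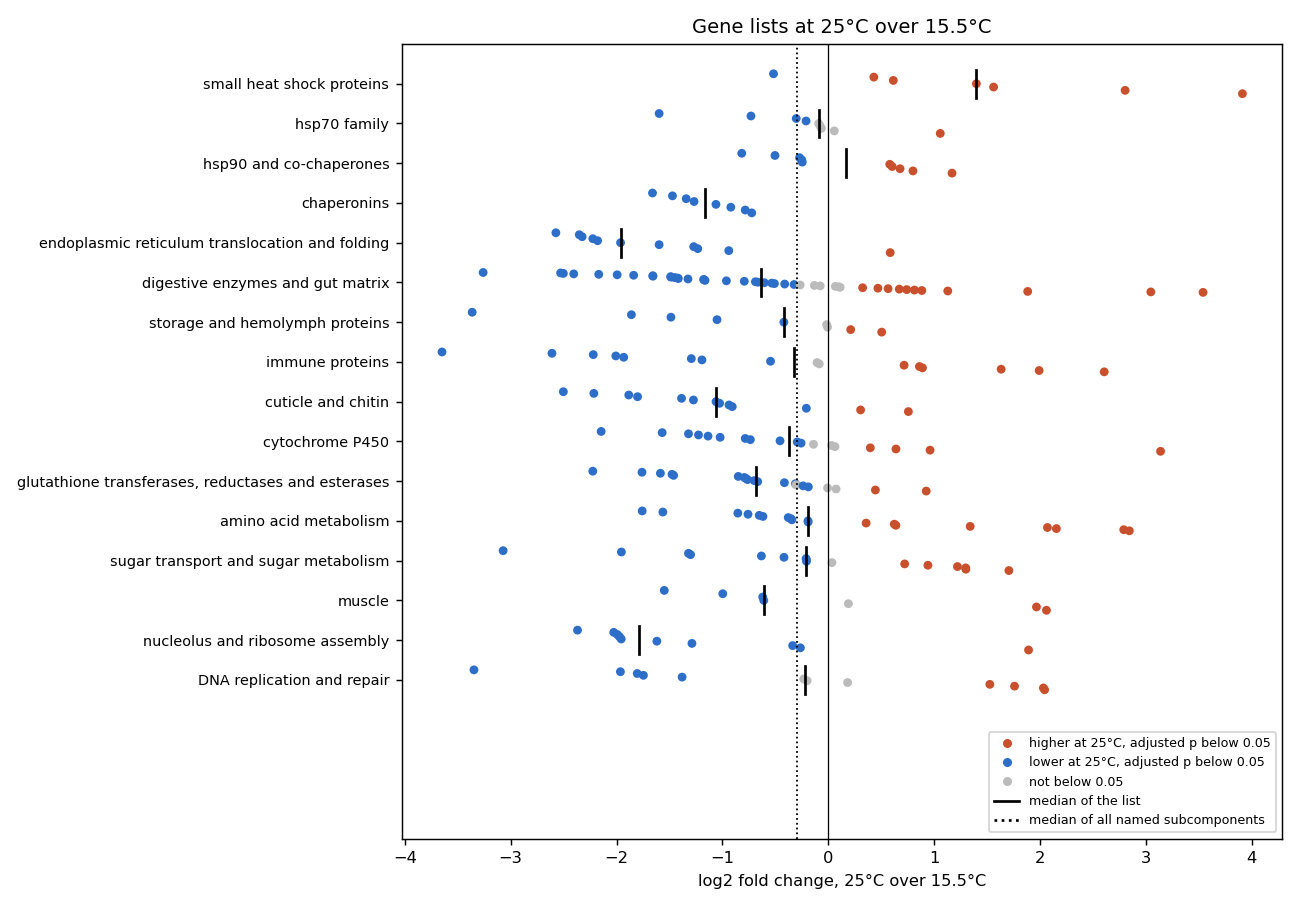
Log2 fold change at 25°C over 15.5°C of every tested member of 16 gene lists (points, red or blue where the adjusted p was below 0.05 and grey where it was not), with the median of each list as a bar and the median of all named subcomponents as a dotted line at -0.29. The medians of the lists for the endoplasmic reticulum (-1.96) and the nucleolus (-1.79) lie farthest to the left, and that of the small heat shock proteins (1.40) farthest to the right.

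Of 13 cuticle proteins of the larval skin and chitin enzymes 11 fell and 2 rose, with a median log2 fold change of -1.06, where 284 of the 527 named subcomponents fell and 179 rose at a median of -0.29. Larval cuticle protein 1 (comp61138_c1) had 688, 599, 566, 559 and 587 CPM at 25°C, against 2988, 2742, 2657, 2718 and 2822 CPM at 15.5°C (log2 fold change -2.21, standard error 0.072, edgeR adjusted p = 1.35e-21). A second subcomponent of that name (comp60283_c4) averaged 107 ± 11.1 CPM at 25°C and 397 ± 7.16 CPM at 15.5°C. Cuticle protein 8 (comp54373_c0) was called lower at low levels, 1.54 CPM at 25°C and 9.67 CPM at 15.5°C. Endocuticle structural glycoprotein SgAbd-2 (comp37858_c1) had a log2 fold change of -1.80, and protein yellow (comp57999_c0), needed for dark pigment in the cuticle of *Drosophila*, had -1.39. Of the chitinases, which cut chitin, 1 rose by 0.76 (comp64787_c0) and 1 fell by 0.21 (comp64069_c1) on the log2 scale.

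Epidermal markers, all 12 of which also stand in the cuticle list, summed to 1534 to 1749 CPM at 25°C, against 4677 to 4980 CPM at 15.5°C. In a whole thorax, fewer cells of a type and less RNA per cell cannot be told apart. Muscle markers summed to 3859 to 4148 CPM at 25°C, against 2516 to 3039 CPM at 15.5°C. They were 3 subcomponents, 2 of which passed as higher and 1 as lower. Of the 2 that passed as higher, 1 carried no name (comp62634_c1, log2 fold change 0.62). It was added because its contig is the study's troponin reference. In the longer muscle list below, 4 of 7 fell and 2 rose. Gut markers (28 subcomponents) summed to 10938 to 13237 CPM at 25°C and 14245 to 15481 CPM at 15.5°C, with 5 that passed as higher and 19 as lower. Markers of fat body and hemolymph (7) summed to 20976 to 26187 CPM at 25°C and 26436 to 28223 CPM at 15.5°C, and those of hemocytes (3) to 364 to 426 CPM at 25°C and 398 to 422 CPM at 15.5°C. No marker of these lists was at 0 at either temperature. No named subcomponent matched the words for silk gland or nervous system. The part of these shifts in the results for single genes was not tested.

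Among immune proteins 8 of 16 fell and 6 rose, close to the division of all named subcomponents (284 of 527 fell and 179 rose). Lysozyme (comp56573_c0), which cuts the wall of bacteria and in some insects also serves digestion, had 89.8, 86.1, 83.5, 82.0 and 94.7 CPM at 25°C, against 1230.4, 1046, 1034, 1123 and 1054 CPM at 15.5°C (log2 fold change -3.65, standard error 0.067, edgeR adjusted p = 1.11e-27). Among named subcomponents that averaged 10 CPM or more and did not overlap, none had a lower fold change, and only 2.10% of its reads were unique to a contig. A second lysozyme (comp54048_c0) averaged 49.6 ± 10.4 CPM at 25°C and 233 ± 6.23 CPM at 15.5°C. Peptidoglycan-recognition protein 2 (comp57872_c0), a sensor of bacterial wall, had 141, 148, 172, 167 and 164 CPM at 25°C, against 639, 608, 651, 665 and 618 CPM at 15.5°C (log2 fold change -2.01, standard error 0.060, edgeR adjusted p = 2.15e-22).

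Serine protease persephone, which in *Drosophila* acts upstream of the Toll receptor, was the name of subcomponents that moved in opposite directions. The first (comp64080_c0) had 232, 205, 178, 167 and 199 CPM at 25°C, against 1214, 1172, 1199, 1208 and 1198 CPM at 15.5°C, a log2 fold change of -2.61, which was -0.66 on unique reads and -1.67 on effective counts. The second (comp59021_c8) had 104, 86.7, 105, 98.4 and 95.8 CPM at 25°C, against 15.3, 15.8, 14.8, 17.7 and 16.0 CPM at 15.5°C, a log2 fold change of 2.61. Limulus clotting factor C (comp59974_c0), the name of another serine protease, rose by 1.99. Phenoloxidase subunit 2 (comp61132_c0), an enzyme of melanin formation, rose by 0.72 and phenoloxidase subunit A3 (comp56149_c0) did not pass, at -0.11.

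Digestive enzymes and gut matrix formed the longest list. Of 44 subcomponents 27 fell, 11 rose and 6 did not pass, with a median log2 fold change of -0.63, beside 284 of 527 and 179 of 527 over all named subcomponents. The gut markers summed above were picked by words such as amylase, chymotrypsin, trypsin and peritrophin. Those words also name members of this list, so that sum is not separate evidence. Lipases went both ways: inactive pancreatic lipase-related protein 1 (comp58586_c0) averaged 56.3 ± 6.44 CPM at 25°C and 4.75 ± 1.30 CPM at 15.5°C (log2 fold change 3.54, standard error 0.11, edgeR adjusted p = 5.32e-22), and a pancreatic triacylglycerol lipase (comp60703_c1) averaged 3.20 ± 0.571 CPM at 25°C and 32.4 ± 2.75 CPM at 15.5°C (log2 fold change -3.26, standard error 0.12, edgeR adjusted p = 1.83e-20). Another triacylglycerol lipase (comp56444_c0) rose by 3.05, with few counts at 15.5°C and a value of 2.13 on unique reads. Peritrophin-1 (comp59408_c0), a protein of the gut lining, and trypsin-7 (comp57885_c0) were called lower, at -2.53 and -2.50. Alpha-amylase A (comp57363_c0) and chymotrypsin-1 (comp55087_c0), both of them digestive targets of the study's later assay, did not pass.

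Hemolymph proteins carry lipid and store amino acids. Apolipophorin-3 (comp53956_c0), which binds to lipid particles in insect blood, had 138, 167, 126, 123 and 136 CPM at 25°C, against 1469.7, 1331, 1438, 1469.6 and 1399 CPM at 15.5°C (log2 fold change -3.36, standard error 0.070, edgeR adjusted p = 2.61e-26). In its list of 9, 5 fell and 2 rose, against 284 and 179 of the 527 named, and it was the only member that was called. Both subcomponents named apolipoprotein D fell, at -1.86 (comp63055_c4) and -1.49 (comp56713_c0), the first of which was 0.30 on unique reads. Of the storage proteins named basic juvenile hormone-suppressible protein 2, comp64905_c0 fell by 1.05 and comp64679_c1 by 0.42 on the log2 scale, comp59150_c0 rose by 0.51 and comp64679_c0 did not pass (-0.0062). Vitellogenin (comp52536_c0), the yolk precursor, did not pass, at -0.014.

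Enzymes of amino acid metabolism moved both ways. Of 19 subcomponents 8 rose and 11 fell, where 179 of the 527 named ones rose and 284 fell. Of the 19, 4 were called higher and 0 lower, against 1.35% and 0.972% of all subcomponents and 34 and 51 of the 527 named. Ornithine aminotransferase (comp59485_c0), which turns ornithine into a precursor of glutamate and proline, had 463, 434, 457, 426 and 443 CPM at 25°C, against 67.6, 58.6, 59.2, 64.9 and 58.2 CPM at 15.5°C (log2 fold change 2.85, standard error 0.064, edgeR adjusted p = 2.17e-25). Homogentisate 1,2-dioxygenase (comp59450_c0), which opens the ring of a tyrosine breakdown product, had 218, 203, 195, 204 and 204 CPM at 25°C, against 31.9, 28.8, 26.4, 30.0 and 29.7 CPM at 15.5°C (log2 fold change 2.79, standard error 0.054, edgeR adjusted p = 3.38e-27). Both were without overlap. The third and the fourth were L-threonine dehydratase (comp58698_c1, 32.3 ± 6.68 CPM at 25°C and 7.21 ± 0.757 CPM at 15.5°C) and argininosuccinate synthase (comp54435_c0, 337 ± 7.93 CPM at 25°C and 80.0 ± 3.56 CPM at 15.5°C), an enzyme of arginine synthesis. Argininosuccinate synthase had 1.41 on unique reads.

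Protein henna (comp64492_c0), the phenylalanine hydroxylase that feeds tyrosine, rose by 1.34, below the 4-fold limit. Adenosylhomocysteinase (comp56565_c0) and glycine N-methyltransferase (comp64052_c2), both of the methionine cycle, fell, at -1.56 and -1.76. Xanthine dehydrogenase, which makes uric acid from purines, was measured as a target of the study by its contig comp64423_c0_seq2, with 323, 314, 274, 274 and 257 CPM at 25°C, against 78.8, 76.9, 73.2, 63.4 and 95.2 CPM at 15.5°C (log2 fold change 1.89, standard error 0.090, edgeR adjusted p = 3.49e-12). Of the reads of that contig 0.189% were unique to it. The sum of the contig's subcomponent (comp64423_c0) had a log2 fold change of 2.16 and was called higher.

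In sugar transport and metabolism 6 of 16 rose and 9 fell, beside 179 and 284 of the 527 named. The facilitated trehalose transporter Tret1 moves trehalose, the blood sugar of insects, and its name was attached to subcomponents that did not move together. Tret1 comp63612_c3 had 3.97, 5.82, 5.30, 4.55 and 4.52 CPM at 25°C, against 40.5, 43.0, 40.2, 43.8 and 42.0 CPM at 15.5°C (log2 fold change -3.07, standard error 0.081, edgeR adjusted p = 9.08e-24), while comp64562_c0 rose by 0.72. Sedoheptulokinase (comp63926_c0) fell, at -1.95 (-1.35 on unique reads), and inositol oxygenase (comp54113_c0) and an acid trehalase-like protein (comp63947_c1) rose, at 1.71 and 1.30.

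Detoxification enzymes were divided as follows. Among 18 cytochrome P450 subcomponents 11 fell and 4 rose, and among 20 glutathione transferases, reductases and esterases 15 fell and 2 rose, where 284 of the 527 named subcomponents fell. Cytochrome P450 6l1 (comp61739_c3) was called higher, with 14.1, 16.2, 15.4, 15.6 and 14.9 CPM at 25°C, against 2.21, 1.30, 1.04, 1.06 and 1.94 CPM at 15.5°C (log2 fold change 3.14, standard error 0.12, edgeR adjusted p = 1.48e-19), and P450 9e2 (comp61417_c4) was called lower, with 20.9 ± 1.54 CPM at 25°C and 93.3 ± 4.03 CPM at 15.5°C. P450 18a1 (comp62481_c0), which in *Drosophila* inactivates the molting hormone, fell, at -1.57. A glutathione S-transferase (comp58392_c0) was called lower, with 7.76 ± 1.84 CPM at 25°C and 37.4 ± 4.50 CPM at 15.5°C, and esterase FE4 (comp62536_c0) had -1.76. On unique reads P450 9e2 had -1.35 and esterase FE4 -0.67.

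Of the 7 muscle subcomponents 4 fell and 2 rose, beside 284 and 179 of the 527 named. Muscle-specific protein 20 (comp64509_c1) had 602, 595, 551, 535 and 579.5 CPM at 25°C, against 1706, 1700.3, 1641, 1703 and 1628 CPM at 15.5°C (log2 fold change -1.55, standard error 0.048, edgeR adjusted p = 3.73e-22). Protein muscleblind (comp60320_c4), a splicing factor of muscle, fell at -0.996, and troponin I (comp63275_c0), of the thin filament, at -0.61. Dystrophin (comp60612_c0) rose, with 8.25 CPM at 25°C and 1.74 CPM at 15.5°C. Titin (comp60551_c0) rose as well, with 42.4, 26.7, 27.3, 22.4 and 23.1 CPM at 25°C, against 7.89, 6.18, 7.86, 7.92 and 6.26 CPM at 15.5°C, with a log2 fold change of 1.97 and a standard error of 0.37. Replicate 1 of 25°C, the library with shorter reads, lay above the other 4, and without it the value was 1.77.

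The named subcomponents with the highest fold changes, again at 10 CPM or more and without overlap, included several outside these lists. Lysine-specific demethylase 6A (comp55606_c0), a histone demethylase, had 56.7, 54.6, 61.5, 55.0 and 55.4 CPM at 25°C, against 2.89, 2.78, 2.77, 2.72 and 2.16 CPM at 15.5°C (log2 fold change 4.29, standard error 0.100, edgeR adjusted p = 4.57e-25). A further subcomponent of that name (comp63636_c0), noticed after its values were seen, had a log2 fold change of 3.99, with 1.73% of its reads unique to a contig. Ankyrin repeat and SOCS box protein 9 (comp59195_c0), of a family of substrate adaptors for ubiquitin ligases, had 202, 208, 208, 212 and 221 CPM at 25°C, against 16.6, 16.4, 14.2, 16.7 and 14.7 CPM at 15.5°C (log2 fold change 3.72, standard error 0.056, edgeR adjusted p = 2.69e-29). E3 ubiquitin-protein ligase RNF139 (comp63534_c0) had 128, 136, 145, 149 and 136 CPM at 25°C, against 12.1, 11.1, 12.4, 11.1 and 11.5 CPM at 15.5°C (log2 fold change 3.55, standard error 0.057, edgeR adjusted p = 4.90e-29). On unique reads the value of ankyrin repeat and SOCS box protein 9 was 3.09. For all 3 the lowest library of 25°C was more than 10-fold above the highest of 15.5°C.

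Leucine-rich repeat-containing protein 20 (comp64687_c2) averaged 316 ± 6.63 CPM at 25°C and 29.8 ± 2.58 CPM at 15.5°C, a log2 fold change of 3.39. Protein TEX261 (comp61379_c1) averaged 128 ± 8.54 CPM at 25°C and 16.0 ± 2.23 CPM at 15.5°C, a log2 fold change of 2.98. Of the reads of TEX261 0.0798% were unique to a contig. The highest of these, putative uncharacterized protein FLJ37770 (comp64970_c2), had 24.4, 21.3, 22.4, 21.3 and 17.3 CPM at 25°C, against 0.770, 0.865, 0.462, 0.945 and 0.324 CPM at 15.5°C (log2 fold change 4.53, standard error 0.15, edgeR adjusted p = 9.67e-22). On effective counts its log2 fold change was 2.56.

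At the other end, epididymal secretory protein E1 (comp60777_c0), whose family binds sterols, had 23.6, 19.9, 14.6, 14.5 and 11.6 CPM at 25°C, against 208, 197, 179.5, 189 and 198 CPM at 15.5°C (log2 fold change -3.51, standard error 0.11, edgeR adjusted p = 1.13e-21). General odorant-binding protein 56d (comp55204_c0), of a family that carries small hydrophobic molecules, averaged 5.17 ± 0.783 CPM at 25°C and 42.8 ± 2.20 CPM at 15.5°C (log2 fold change -2.98, standard error 0.087, edgeR adjusted p = 1.11e-22). Mobility group protein 1A (comp38073_c0), a chromatin protein, had 68.8, 57.3, 61.3, 56.2 and 60.7 CPM at 25°C, against 487, 414, 427, 463 and 425 CPM at 15.5°C (log2 fold change -2.86, standard error 0.068, edgeR adjusted p = 7.19e-25). Retinoid-inducible serine carboxypeptidase (comp54096_c0) and an 11.2 kDa uncharacterized protein (comp56244_c0) had log2 fold changes of -2.75 and -2.65. Reads unique to a contig made up 0.534% for epididymal secretory protein E1 and 2.14% for the carboxypeptidase. The subcomponent named uncharacterized protein ORF91 (comp65709_c0) had 19.9, 4.82, 6.74, 4.55 and 4.19 CPM at 25°C, against 212, 91.9, 77.8, 57.7 and 29.3 CPM at 15.5°C. Its libraries varied several-fold within each temperature, and the standard error of its log2 fold change of -3.46 was 1.02 (edgeR adjusted p = 0.00377). Without 25°C replicate 1 its log2 fold change was -4.15. The ribosomal-like share of those libraries was 1.93%, 1.18%, 0.66%, 0.61% and 0.49% at 25°C. At 15.5°C it was 2.45%, 1.13%, 1.26%, 0.93% and 0.51%. At 20°C, replicates 1 and 4, with shares of 44.99% and 76.99%, had 362 and 1767 CPM of ORF91, and the others 6.70 to 18.3 CPM. The link between that share and ORF91 was not tested.

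Most called subcomponents had no name: 34 of the 206 called higher and 51 of the 148 called lower had one. Subcomponent comp48583_c0 had 39.0, 54.9, 47.5, 47.1 and 44.9 CPM at 25°C, against 0, 0.0618, 0, 0 and 0.108 CPM at 15.5°C. This was 1956 counts over the libraries of 25°C and 2 over those of 15.5°C, and it had 0 counts at 20°C and 1 at 28.6°C. It passed the filter on low counts through the 25°C libraries alone, so its values are given as a description. Subcomponent comp66013_c0 had 23.7, 22.0, 22.6, 24.3 and 21.0 CPM at 25°C, against 0.0962, 0.185, 0.231, 0.591 and 0.216 CPM at 15.5°C, and its means over the 4 temperatures from the coolest were 0.264, 18.3, 22.7 and 21.8 CPM.

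Of those called lower, comp66109_c0 had 0.203, 0.426, 0.241, 0.984 and 0.662 CPM at 25°C, against 35.0, 32.4, 30.2, 31.7 and 33.6 CPM at 15.5°C (log2 fold change -5.48, standard error 0.15, edgeR adjusted p = 3.78e-23). Subcomponent comp64923_c2 varied widely within both temperatures, with 8.34, 3.55, 3.13, 1.48 and 1.32 CPM at 25°C, against 124, 62.4, 57.9, 43.7 and 22.9 CPM at 15.5°C (log2 fold change -4.00, standard error 1.07). Without 25°C replicate 1 its log2 fold change was -4.62. At 20°C, replicates 1 and 4, which had the high ribosomal-like shares, had 174 and 896 CPM of comp64923_c2, and the others 3.76 to 10.2 CPM. The link between that share and this subcomponent was not tested. Among the called subcomponents without a name, comp65807_c1, picked out after its values were seen for its level, had 1902, 2286, 2041, 2141 and 2057 CPM at 25°C, against 309, 318, 316, 293 and 319 CPM at 15.5°C (log2 fold change 2.74, standard error 0.052, edgeR adjusted p = 2.58e-27). Of its reads 0.265% were unique to a contig.

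Testing single contigs gave a wider list. Of 30413 contigs tested, 1016 were called higher (3.34%) and 696 lower (2.29%). Of the 1016, 229 belonged to a subcomponent that was called higher too, 618 to one that passed as higher by less than 4-fold, 91 to one that did not pass and 78 to one that passed as lower by less than 4-fold. Of the 696, the same counts were 169, 384, 76 and 67. No called contig belonged to a subcomponent called in the opposite direction. In 54 subcomponents contigs were called both ways. Reads unique to the contig made up a median of 1.1% of the estimated counts of contigs called higher and 2.21% of those called lower, so that most of these calls rest on reads divided by probability between similar contigs. Counted on unique reads, 320 contigs were called higher and 267 lower.

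**Figure D5:**
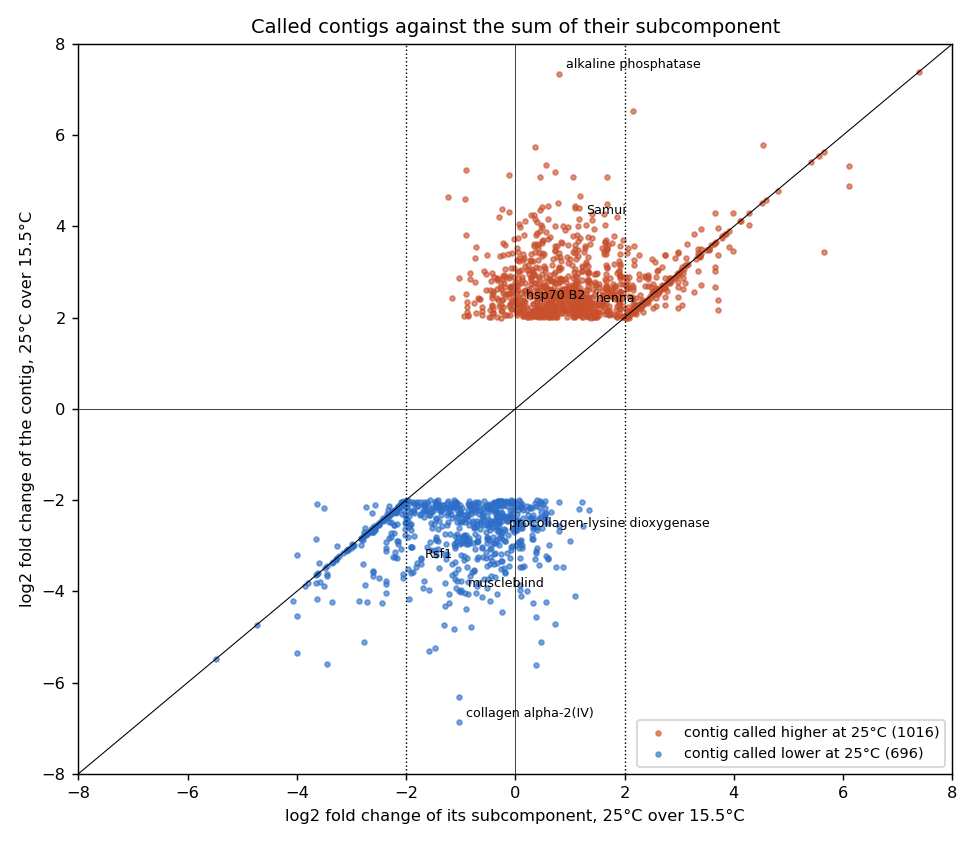
Log2 fold change at 25°C over 15.5°C of each called contig (vertical, 1016 higher in red and 696 lower in blue) against that of the subcomponent it belongs to (horizontal), with the line of equality. Dotted lines mark 4-fold for the subcomponent, and many points lie between them, where the sum over all contigs changed by less than the single contig did.

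Alkaline phosphatase (comp64526_c2_seq3) was the extreme case among named contigs. It had 38.6, 39.3, 43.9, 38.8 and 33.8 CPM at 25°C and 0 estimated counts in each library of 15.5°C, which puts it at least 678-fold higher against a floor of 3 counts over the group. With no count at 15.5°C it could pass the filter only through warmer libraries, and the bound is a description. The sum over its subcomponent rose by 0.79. A contig of Samui (comp61114_c0_seq6) had 88.4, 83.2, 104, 96.8 and 105 CPM at 25°C, against 6.24, 5.60, 5.78, 4.39 and 3.58 CPM at 15.5°C, a log2 fold change of 4.15 against 1.17 for the subcomponent. Contigs of demethylase 6A (comp55606_c0_seq2) and FLJ37770 (comp64970_c2_seq2) moved with their subcomponents, at 4.29 (3.27 on unique reads) and 5.79.

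Collagen alpha-2(IV) chain (comp59991_c0_seq4), of the basement membrane, had 0, 0, 0.716, 0.612 and 1.54 CPM at 25°C, against 90.5, 80.1, 202, 30.7 and 78.4 CPM at 15.5°C, a log2 fold change of -6.87 where the subcomponent had -1.03. A contig of muscleblind (comp60320_c4_seq16) had 2.24, 3.24, 2.51, 2.57 and 2.74 CPM at 25°C, against 43.1, 37.9, 50.7, 53.0 and 48.8 CPM at 15.5°C, a log2 fold change of -4.02 where its subcomponent had -0.996. None of the reads of the contigs of alkaline phosphatase, Samui, collagen and muscleblind were unique to them in more than trace amounts, and a shift between contigs of 1 subcomponent and a shift in how reads were divided cannot be told apart here. The contig of epididymal secretory protein E1 (comp60777_c0_seq3) had -3.88, close to the value of its subcomponent. None of the reads of that contig were unique to it either.

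The study chose 31 target and 3 reference transcripts for its later NanoString assay from these same libraries, by contig, the targets from among those that differed most between temperatures and the references for their low variation. For the comparison of 25°C with 15.5°C, 30 of the 31 had enough counts to be tested, and the contig listed as a copper chaperone did not. ATPase inhibitor (comp60498_c0_seq1), which blocks the mitochondrial ATP synthase from running backwards, had 121, 126, 113, 118 and 119 CPM at 25°C, against 36.4, 36.7, 27.4, 30.1 and 30.7 CPM at 15.5°C (log2 fold change 1.88, standard error 0.091, edgeR adjusted p = 4.25e-12). An Arf-GAP with PH domains (comp62480_c4_seq2), a regulator of small GTPases, averaged 12.3 ± 1.02 CPM at 25°C and 2.46 ± 0.621 CPM at 15.5°C, with a log2 fold change of 2.23. Zonadhesin (comp62844_c0_seq3) averaged 19.8 ± 1.37 CPM at 25°C and 125 ± 2.74 CPM at 15.5°C, with a log2 fold change of -2.65.

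For several targets the contig and the sum of its subcomponent differed. Hsp70 (comp64140_c1_seq7) had 2.04, 1.13, 1.07, 2.81 and 1.65 CPM at 25°C, against 0, 0.440, 0.116, 0 and 0.109 CPM at 15.5°C, a log2 fold change of 2.30 on counts near the limit, where the subcomponent had 0.058. On unique reads the contig did not pass, at 0.26. The procollagen-lysine dioxygenase (comp61977_c0_seq1), a collagen-modifying enzyme, had a log2 fold change of -2.72 and its subcomponent -0.25. RNA-binding protein Rsf1 (comp55145_c0_seq1), a splicing repressor in *Drosophila*, had -3.39 (-2.80 on unique reads) and its subcomponent -1.80. For mobility group protein 1A the values were -4.21 and -2.86, and for henna 2.23 (comp64492_c0_seq6) and 1.34. None of the reads of the henna contig were unique to it.

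Milder falls that passed were seen in the aquaporin (comp64170_c1_seq1, -0.60), the apoptosis inhibitor (comp58747_c0_seq1, -0.49), the circadian clock-controlled protein (comp57418_c0_seq3, -0.77), the carbonyl reductase (comp61657_c0_seq4, -0.64) and the trehalose transporter (comp63446_c0_seq1, -0.65). None of the reads of the carbonyl reductase contig were unique to it. The contigs of carbonic anhydrase 2, PGM, phenoloxidase A3, TAM41 and the hsp90 activator did not pass. Of the references, elongation 1B (comp51037_c0_seq1) averaged 316 ± 26.6 CPM at 25°C and 308 ± 30.0 CPM at 15.5°C and did not pass (0.038, edgeR adjusted p = 0.795). Troponin (comp62634_c1_seq14) passed at 0.24 (edgeR adjusted p = 0.023), but its groups overlapped, and without 25°C replicate 1 or 15.5°C replicate 3, 4 or 5 it did not pass, at 0.20 to 0.22. The reference without annotation (comp60946_c5_seq1) had 26.2 to 31.2 CPM at 25°C and 21.6 to 25.5 CPM at 15.5°C, without overlap, and did not pass, at 0.24 (edgeR adjusted p = 0.0947). It passed under DESeq2 and without 20°C replicates 1 and 4, both at 0.24, in the 10 libraries alone, at 0.25, and on unique reads and with 2 CPM in every library, both at 0.26.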

How the data were processed

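RNA from pools of larval thorax was sequenced as paired-end reads. Per the labels and the study's methods, the authors trimmed reads with Trim Galore 0.3.0, joined overlapping pairs, mapped with Bowtie2 2.0.6 to a Trinity assembly and counted with eXpress 1.5.1, which divides a read that fits several contigs by probability. The deposited files give, per library and contig, estimated counts, effective counts, whole counts of unique reads and FPKM; the authors did not pool libraries in them. Estimated counts, rounded, were the values tested, and FPKM was read only to learn what the files hold. The authors' table of differentially expressed transcripts (edgeR 1.2.4) holds 20 sample columns of centred log2 values, none of which was used. Its names were used. Longest read positions came from the deposited parameter files.

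All 20 libraries entered 1 fit with a coefficient per temperature (edgeR 4.0.16, limma 3.58.1, R 4.3.3; tables and figures with Python 3.11.15, pandas 2.3.3, numpy 2.4.6, scipy 1.17.1 and matplotlib 3.10.9), on features with at least 2 CPM in at least 4 libraries, with TMM factors and a prior count of 2, without subcomponent comp65386_c0. Standard errors are the log2 fold change over the square root of the F statistic. On simulated counts for 25°C against 15.5°C over 14498 subcomponents, 100% of those changed 2-fold and 100% of those changed 8-fold passed, as did 16 that had not been changed. Changes were set only in subcomponents that averaged 10 CPM or more, and all subcomponents were given the same dispersion. The shares therefore do not describe subcomponents with low or variable counts. Only a small part of the subcomponents was changed, as many up as down. In the data 5051 of 15220 passed as higher and 4996 as lower, and scaling and false passes under so broad a difference were not tested. Totals of estimated counts were 6756103 to 9621568 at 25°C and 7452707 to 14236152 at 15.5°C. Alternatives were other scaling, tools (DESeq2 1.42.0, likelihood ratio, glmTreat), filters, count columns, subsets of libraries, covariates and each replicate left out. Subcomponents and contigs were named by rule: the study's targets and references, the 10 highest and 10 lowest named ones called at 10 CPM or more without overlap (1 per name), the 2 highest and 2 lowest without a name, up to 4 per list, and 4 contigs each way. Further members of a list were picked after their values were seen. The comparison, its members and its lists were chosen with earlier results of these data known.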

Additional observations from a re-analysis of the deposited data

Results flagged for a closer look

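In 16 of 286 groups of 5 libraries, 1 library lay far from the other 4 by Dixon's test, which chance alone does in about 1 group in 20. Of these, 8 were at 25°C, and 6 of those were replicate 1, the 25°C library with shorter reads, each time as the highest. That library also had the highest ribosomal-like share of the 25°C libraries, 1.93%. Replicate 1 of 25°C had 19.9 CPM of the subcomponent named ORF91 (comp65709_c0), against 4.19 to 6.74 CPM in the other 4. It had 41.4 CPM of translocon-associated protein subunit beta (comp31633_c0), and also 41.4 CPM of that subcomponent's contig (comp31633_c0_seq1). It had 42.4 CPM of titin (comp60551_c0), 53.9 CPM of inositol oxygenase (comp54113_c0) and 20.2 CPM of the hsp90 ATPase activator (comp63956_c0). Replicate 2 of 25°C had 91.8 CPM of hsp70 cognate 5 (comp63373_c1), below the others, and replicate 5 of 25°C had 5.07 CPM of protein AATF (comp56623_c0), above them.

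At 15.5°C, replicate 5 had 2.16 CPM of demethylase 6A (comp55606_c0), the lowest, and 43.0 CPM of lethal(2)essential for life (comp64489_c0), the highest. Replicate 4 of 15.5°C had 0.591 CPM of the unnamed comp66013_c0 and 1.77 CPM of a triacylglycerol lipase (comp56444_c0), both the highest, and 61.5 CPM of the hsp23 contig (comp54992_c0_seq1), the lowest. Replicate 3 of 15.5°C had 0.463 CPM of the FLJ37770 contig (comp64970_c2_seq2), replicate 2 had 0.440 CPM of the hsp70 B2 contig (comp64140_c1_seq7) and replicate 1 had 1330 CPM of the troponin reference (comp62634_c1_seq14), each the highest of 5.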

How the results depend on the processing

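Calls are given as subcomponents higher, subcomponents lower, contigs higher and contigs lower. The adjusted p alone gave 5051, 4996, 5770 and 5497, and a minimum of 2 CPM in every library gave 62, 43, 140 and 90. Effective counts gave 496 and 340 subcomponents. The test against 2-fold (glmTreat) gave 831 and 757 subcomponents and 1086 contigs lower. Without the filter, 296 subcomponents and 1056 contigs were called lower, and with only the libraries of longer reads 77 and 306. The latter setting held 3 libraries of 15.5°C, fewer than the 4 that its filter asked for. With the read set as a covariate 149 subcomponents and 690 contigs were called lower. Unique reads gave 320 contigs higher and 267 lower. Library size as scaling gave 174 and 188 subcomponents, with a median log2 fold change of -0.11. DESeq2 gave 293 and 206 subcomponents. Leaving out 1 replicate gave 194 to 204, 136 to 156, 971 to 1040 and 633 to 711, and 34 chaperones higher at 28.6°C than 25°C each time. On unique reads 31 chaperones passed as higher at 28.6°C than 25°C.

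On unique reads the direction turned for Samui (comp61114_c0, -0.15), hsp83 (comp63082_c0, -0.032), apolipoprotein D (comp63055_c4, 0.30), hsp26 (comp63041_c3, -0.45) and hsp70 Ab (comp65626_c0, 1.52), and the cause was not tested.

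Whether replicate numbers pair the libraries was not settled. The correlations of same-numbered libraries' deviations ran from 0.00098 to 0.099 over subcomponents and from -0.0055 to 0.023 over contigs. Those of differently numbered libraries ran from -0.077 to 0.098 over subcomponents. The ribosomal-like share was highest in replicate 1 and lowest in replicate 5 at both temperatures (1.93% and 0.49% at 25°C, 2.45% and 0.51% at 15.5°C). With a replicate block 204 and 154 subcomponents and 1029 and 725 contigs were called, and no named subcomponent or contig changed its side of the threshold.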

Other observations

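Subcomponents below the level of 10 CPM set for naming held further large differences, picked out after their values were seen. Elongation factor 1-alpha (comp58442_c0) and elongation factor 2 (comp61619_c0), the names of proteins that every cell uses in translation, had log2 fold changes of -4.08 and -3.86, with means of 0.461 CPM at 25°C and 11.1 CPM at 15.5°C for the first and 0.282 CPM at 25°C and 7.38 CPM at 15.5°C for the second. Both were near the limit of the counts at 25°C. Whether they are the main elongation factor transcripts of the larva was not tested. The subcomponent named RNA-directed RNA polymerase L (comp43533_c0) averaged 10.0 CPM at 25°C and 0 CPM at 15.5°C. It could pass the filter only through warmer libraries, and its values are a description.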
